A study of Arabidopsis thaliana with 9 samples.

Results

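The chloroplast genome genes were taken as all identifiers of the count table that start with ATCG, the prefix of the chloroplast in the Arabidopsis gene numbering. There were 133 of them among 33602 identifiers, and 82 had at least 10 counts in at least 3 libraries and were tested. Leaf RNA of the Columbia ecotype was sequenced as 9 libraries, with 3 biological replicates for each treatment. Control plants (CK) grew at day and night temperatures of 23 and 18 °C. For prolonged warming (PW) these were raised to 28 and 23 °C during 7 days, starting 23 days after sowing, and for heat shock (HS) plants were moved to 38 °C for 6 hours at 30 days after sowing. All leaves were sampled at 30 days after sowing, so PW and HS differ in both temperature and duration.

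The chloroplast keeps a small genome of its own, which encodes core proteins of the photosystems, the cytochrome b6f complex, the ATP synthase, the NDH complex, part of the plastid ribosome, subunits of a bacterial-type RNA polymerase, the large subunit of Rubisco and the tRNAs and rRNAs of plastid translation. The remaining subunits of these complexes are encoded in the nucleus and imported, as are the sigma factors that direct the plastid polymerase to promoters. Many chloroplast genes are transcribed together with their neighbours and cut into smaller transcripts, and the stability of those transcripts is known to be a large part of how their level is set.

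Neither the count table nor the gene table of the reference pairs the ATCG identifiers with gene names. The annotation of TAIR10.1 names 6 of the 133 in notes that describe the closest protein match of a nuclear gene, and 5 of the 6 were tested. Among those tested were ATCG00430 (photosystem II reaction center protein G), ATCG00530 (a CemA-like proton extrusion protein), ATCG00660 (ribosomal protein L20) and ATCG00670 (the plastid-encoded CLP P). The other 127 identifiers are given by identifier alone, and a grouping of the chloroplast genes by photosystem, ATP synthase, NDH, ribosome and polymerase was therefore not made. That grouping is given below only for nuclear genes of the same complexes, whose names the annotation holds.

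For ATCG00660, a named identifier that was called in HS vs CK, the RefSeq annotation has a single chloroplast gene with the same product. The rpl20 coding sequence lies at chloroplast:68512-68865 of TAIR10.1 on the minus strand and has 354 bases. Its first 150 bases are shown 5′ to 3′, with the start codon in capitals.
rpl20: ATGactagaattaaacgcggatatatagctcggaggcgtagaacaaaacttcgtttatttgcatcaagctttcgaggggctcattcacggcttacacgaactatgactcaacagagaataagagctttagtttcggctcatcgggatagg

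The libraries held from 11660970 to 17768334 counts. HS replicate 3 stood apart, with a correlation of log2 CPM across tested genes of 0.912 with each of the other HS libraries, which had 0.987 with each other. The PW replicates also agreed less than those of CK. The correlation was 0.935 between PW replicates 1 and 2, 0.965 between 1 and 3 and 0.963 between 2 and 3, against 0.982 to 0.988 in CK. CPM is the usual count of reads scaled to a common library size, here after TMM scaling, a scaling of library totals that assumes most genes are unchanged. The summed CPM of 4 leaf mesophyll markers ranged from 23700 to 29600 in CK, from 59400 to 66600 across PW and from 24500 to 27400 across HS. RBCS1A and ATPC1 are among these markers and also stand in the nuclear lists below, where both were called higher in PW vs CK. The sum is therefore not separate from those results. The sum of 4 root markers ranged from 21.9 to 34.9 in CK, from 0.289 to 60.4 across PW and from 0.165 to 16.4 across HS, that of 3 flower markers was at most 16.5 and that of 3 seed markers at most 0.172. Mitochondrial identifiers took from 0.0164% to 0.0200% of the counts in CK, from 0.00617% to 0.00861% across PW and from 0.0336% to 0.127% across HS. The part of the markers and of the mitochondrial share in the results was not tested.

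Chloroplast identifiers took about 1% of the counts in every library, and the share was lower in HS than in CK. The share was 0.907%, 0.905% and 0.925% in CK, 1.22%, 0.906% and 0.792% in PW versus 0.677%, 0.728% and 0.744% in HS. All 3 HS libraries were below all 3 CK libraries, whereas the PW libraries lay on both sides of the CK range, with PW replicate 1 the highest of the 9. The mean share was 0.716% ± 0.0349 (SD, n = 3) in HS and 0.912% ± 0.0111 (SD, n = 3) in CK, a difference of -0.196 percentage points (exact two-sided permutation test, p = 0.1, adjusted p = 0.15 over 3 comparisons). The difference was 0.0601 percentage points for PW vs CK (exact permutation p = 0.9, adjusted p = 0.9) and 0.257 for PW vs HS (exact permutation p = 0.1, adjusted p = 0.15). With 3 libraries against 3 the exact permutation test cannot go below p = 0.1. In bulk leaf RNA, fewer cells of a type and less RNA per cell cannot be told apart.

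On the TMM scale the same libraries ordered differently, because the TMM factors were from 0.812 to 0.964 in PW against 1.10 to 1.22 in CK. The summed CPM of all chloroplast identifiers was 7450, 8251 and 8143 in CK, 12660, 11140 and 9754 in PW versus 7210, 7587 and 6454 in HS. Every PW library was above every CK and HS library on this scale, and CK and HS overlapped. Without the 5 most abundant identifiers, the sum was 1886, 1852 and 1903 CPM in CK, 3520, 3236 and 2683 in PW versus 1454, 1462 and 1579 in HS, with no overlap between any pair of treatments.

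**Figure D1:**
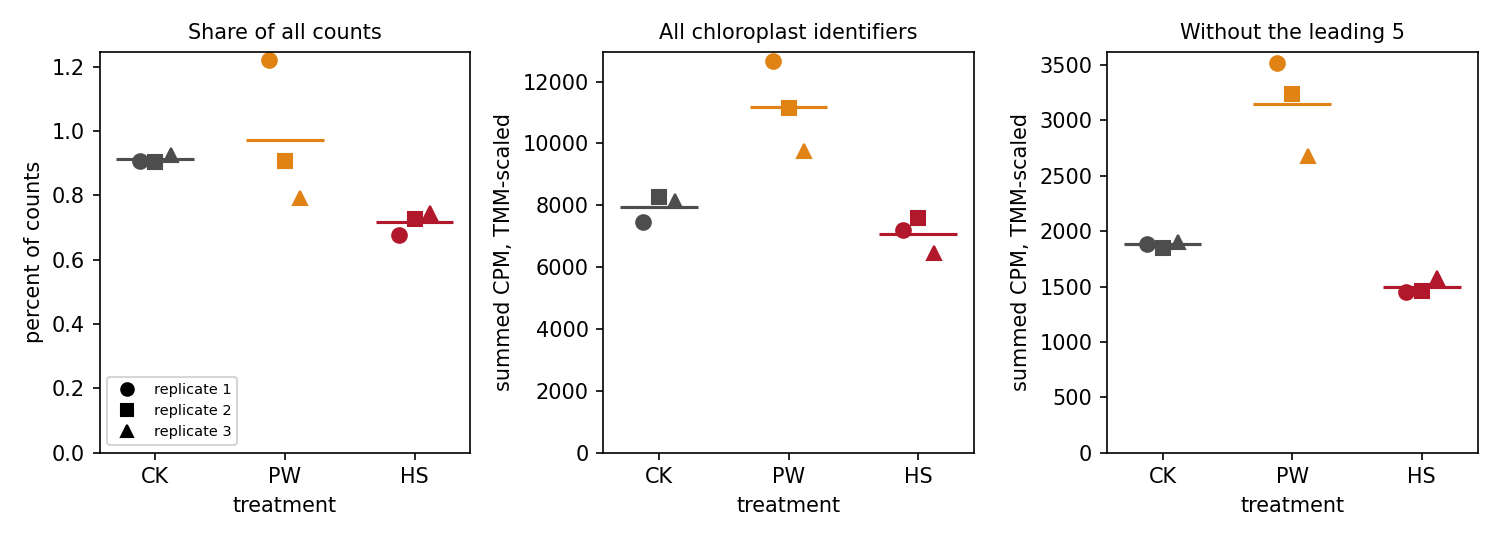
Chloroplast counts in each library: percent of all counts (left), summed TMM-scaled CPM of all 133 chloroplast identifiers (middle) and the same sum without the leading 5 (right), by treatment. Points are libraries with a marker for each replicate, and lines are means. The 3 HS libraries lie below the 3 CK libraries in the left panel, and PW lies above both in the right panel.

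A few identifiers held most of the chloroplast counts. ATCG00480, the one with the most CPM in CK, held from 34.4% to 41.5% of the chloroplast counts of a CK library, from 23.3% to 31.9% across PW and from 27.8% to 28.8% across HS. The 5 leading identifiers, ATCG00480, ATCG00220, ATCG01020, ATCG00470 and ATCG01130, together held from 71.0% to 80.7%. Averaged over the 9 libraries, the tested identifiers ranged from 0.543 to 2710 CPM, with a median of 8.52. In all, 9 had a mean of at least 100 CPM, 31 had from 10 to 100 and 42 had under 10. These levels are not divided by gene length and are not compared between genes further.

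The 51 untested identifiers lay mainly in long runs. By the convention of the gene numbering, identifiers run in order along the chromosome. The run from ATCG00830 to ATCG01000 held 19 untested identifiers with 48 counts over all 9 libraries, and the run from ATCG01140 to ATCG01310 held 18 with 41 counts. Over all untested identifiers, 28 had no count in any library, and the highest count of any in a library was 22. ATCG01310, which the annotation names ribosomal protein L2, was among them, with 3 counts in CK replicate 1, 4 in CK replicate 2, 1 in HS replicate 2 and none in the other libraries. The annotation holds 2 chloroplast genes with that product, and how reads that match several places were counted is not given in the sources used here. No comparison was made for these identifiers.

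Heat shock changed chloroplast identifiers in both directions. Of the 82 tested, 16 (19.5%) were called higher and 17 (20.7%) lower in HS than in CK, where a call is an adjusted p under 0.05 in edgeR's quasi-likelihood test and at least a 2-fold change. Over all 18952 tested genes of the table, 11.3% were called higher and 10.5% lower. The median log2 fold change of the chloroplast identifiers was -0.16, beside 0.03 for all tested genes, and the range was from -3.08 to 2.20. The called identifiers changed by a median of 2.40-fold where higher and 2.95-fold where lower. Another 9 had an adjusted p under 0.05 but changed by under 2-fold. The filter admits identifiers that reach 10 counts mainly where they are high. ATCG00110, called higher, reached 10 only in HS, and ATCG01090, called lower, had 3, 3 and 6 counts in HS. Requiring 10 counts of all 9 libraries left 69 identifiers, of which 10 were called higher and 18 lower. Among the 15982 genes so tested, 1623 were higher and 1471 lower. When library size alone was used for scaling, the split was 9 higher and 20 lower, beside 1502 and 2283 of all 18952 tested genes. The higher calls numbered 9, 9, 8, 10 and 9 on leaving out CK replicate 1, 2 or 3 or HS replicate 1 or 2, and 17 without HS replicate 3. Over all tested genes, the same fits gave from 1716 to 1802 higher calls, and 2372 without HS replicate 3. With all libraries that count was 2142.

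Prolonged warming raised more chloroplast identifiers than it lowered. In PW vs CK, 19 (23.2%) were called higher and 4 (4.88%) lower, against 8.82% and 7.6% of all tested genes. The median log2 fold change was 0.57, beside -0.04 for all tested genes, and 58 of the 82 had a positive value. This split depended on the scaling. With library size alone, 12 were called higher and 10 lower, with a median of 0.18, while the median of all tested genes moved to -0.45. Of all 18952 tested genes, 842 were called higher and 3029 lower with that scaling. Scaled to the summed counts of all chloroplast identifiers, 10 were higher and 12 lower, with a median of 0.07. Over all tested genes, 776 were higher and 3597 lower, with a median of -0.52. This scale gives changes relative to a sum of which the 5 leading identifiers held from 71.0% to 80.7%. The lower calls numbered 2 without CK replicate 1, where those over all tested genes went from 1441 to 1050. The filter bears on this comparison too. ATCG00560, called higher, had 6, 6 and 3 counts in CK and reached 10 only in PW and HS libraries. Requiring 10 counts of all 9 libraries kept 21 of the 23 calls and lost those of ATCG00560 and ATCG00690. Among the 15982 genes so tested, 1433 were higher and 1144 lower.

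Between the warm treatments, the identifiers that were called were nearly all higher in PW. In PW vs HS, 15 (18.3%) were called higher and 1 (1.22%) lower, against 6.92% and 7.57% of all tested genes, with a median of 0.60 beside -0.02. Scaled to the chloroplast sum, the split was 5 higher and 6 lower, with a median of -0.08. Over all 18952 tested genes it was 494 higher and 5067 lower on that scale, with a median of -0.68. HS vs CK and PW vs CK share the CK libraries, and PW vs HS shares libraries with both, so the comparisons are not independent.

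**Figure D2:**
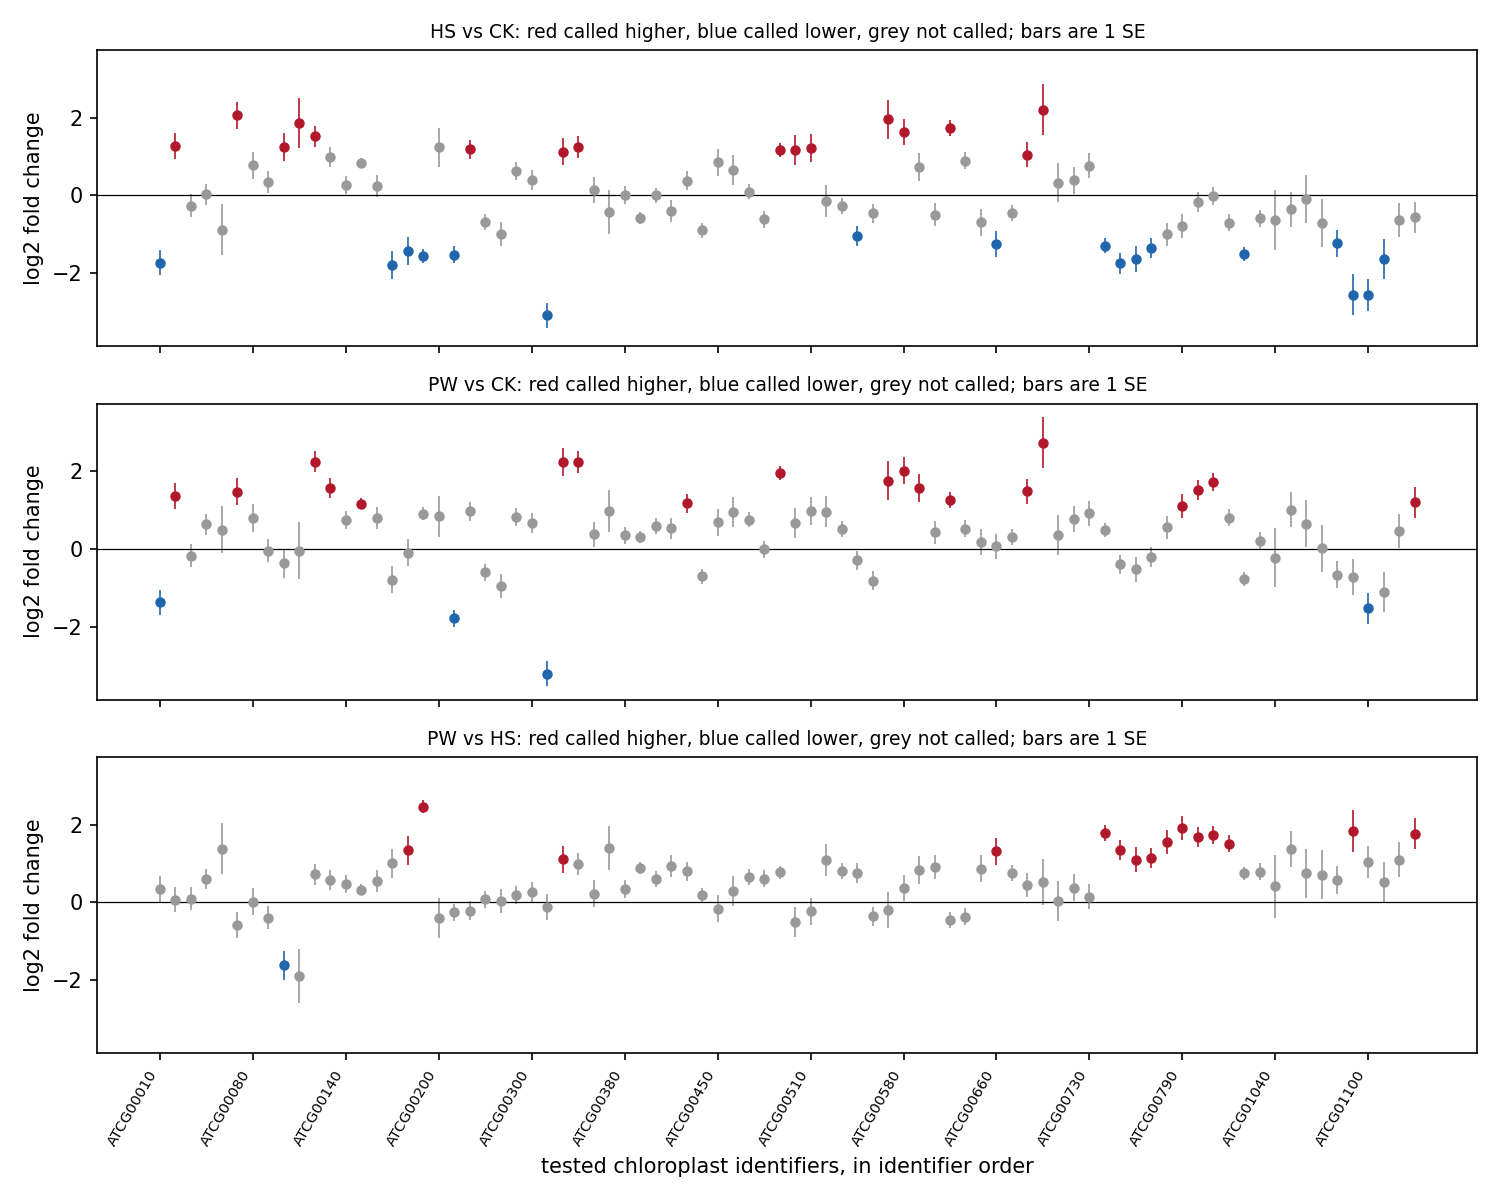
Log2 fold change (vertical axis) of the 82 tested chloroplast identifiers in identifier order (horizontal axis) in 3 panels, 1 for each comparison, with bars of 1 SE. Red points were called higher, blue lower and grey not called: 16 red and 17 blue for HS vs CK, 19 and 4 for PW vs CK, and 15 and 1 for PW vs HS.

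The share called higher fell from the highest to the lowest level in both comparisons of PW, but not in HS vs CK. Of the 9 identifiers with a mean of at least 100 CPM, 1 was called higher in HS vs CK, 4 higher in PW vs CK and 4 higher in PW vs HS. ATCG00220 was the one called in HS vs CK, at 890.9, 773.2 and 742.5 CPM in CK against 2058, 2193 and 1198 in HS, which is a log2 change of 1.18 ± 0.25 (SE, edgeR adjusted p = 0.00627). The groups did not overlap, and HS replicate 3 was the lowest of the HS libraries. The call was lost with library size alone and with the replicate block and the 2 groups. ATCG00480 was at 2560, 3424 and 3201 CPM in CK, 2956, 3559 and 2642 in PW versus 2003, 2187 and 1816 in HS. It was not called in HS vs CK (-0.61 ± 0.22, SE, edgeR adjusted p = 0.0517), although every HS library was below every CK library, and PW and CK overlapped. Of the 31 identifiers with a mean from 10 to 100 CPM, 8 were called higher and 8 lower in HS vs CK, 10 higher and 1 lower in PW vs CK and 8 higher in PW vs HS. Of the 42 with a mean under 10 CPM, the counts were 7 higher and 9 lower, 5 higher and 3 lower, and 3 higher and 1 lower. In HS vs CK the share called higher was 11.1%, 25.8% and 16.7% from the highest to the lowest level, beside 11.3% of all tested genes. In PW vs CK the share called higher was 44.4%, 32.3% and 11.9%, beside 8.82% of all tested genes. In PW vs HS it was 44.4%, 25.8% and 7.14%, the last beside 6.92% of all tested genes. Each level is a mean over all 9 libraries, PW included, so a rise in PW itself raises the level of an identifier. The classes are therefore not independent of the changes, low counts limit calls in the lowest class, and these shares are a description.

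ATCG00660, annotated as ribosomal protein L20 of the large subunit, was measured at low depth, with from 11 to 60 counts in a library. It was at 2.77, 2.64 and 2.30 CPM in CK, 3.59, 2.41 and 2.06 in PW versus 1.01, 1.40 and 0.819 in HS. The HS libraries were below all others, and CK and PW overlapped. It was called lower in HS vs CK, with a log2 fold change of -1.25 ± 0.34 (SE, edgeR adjusted p = 0.018), and higher in PW vs HS, with 1.32 ± 0.35 (SE, edgeR adjusted p = 0.0219). In HS vs CK the edgeR adjusted p rose to 0.0605, 0.0553 and 0.0583 on leaving out CK replicate 1, CK replicate 2 or HS replicate 1. In PW vs HS it was 0.0617 without PW replicate 1, 0.0672 without HS replicate 1, 0.0545 with library size alone and 0.0713 in the fit of only the 2 groups compared. Scaled to the chloroplast sum, its PW vs HS change on the log2 scale was 0.65 (edgeR adjusted p = 0.1275). With the replicate block and the 2 groups, the edgeR adjusted p was 0.151 in PW vs HS and 0.0601 in HS vs CK.

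ATCG00430, annotated as photosystem II reaction center protein G, a name under which a subunit of the NDH complex was first described, rose under prolonged warming. It was at 112.3, 114.8 and 101.6 CPM in CK, 258.2, 291.0 and 193.3 in PW versus 166.8, 164.4 and 94.2 in HS. Every PW library was above every CK and HS library, and CK and HS overlapped through HS replicate 3. The log2 fold change was 1.18 ± 0.25 (SE, edgeR adjusted p = 0.00729) in PW vs CK and 0.37 ± 0.24 (SE, edgeR adjusted p = 0.249) in HS vs CK. With library size alone it was 0.76 in PW vs CK, under 2-fold, and it was 0.68 when scaled to the chloroplast sum.

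ATCG00670 and ATCG00530 were called in none of the comparisons. ATCG00670, the plastid-encoded subunit of the Clp protease, which degrades proteins in the stroma, was at 20.5, 17.8 and 17.0 CPM in CK, 23.7, 24.5 and 20.1 in PW versus 10.9, 11.5 and 18.0 in HS. On the log2 scale it differed by 0.76 ± 0.20 (SE, edgeR adjusted p = 0.0248) in PW vs HS, under 2-fold, and 1.02 (edgeR adjusted p = 0.00135) without HS replicate 3, which was above the other HS libraries. ATCG00530, the CemA-like protein, was at 9.90, 11.8 and 10.6 CPM in CK, 17.7, 15.7 and 12.8 in PW versus 10.2, 9.89 and 6.48 in HS. Its PW libraries were above all others, with 0.52 ± 0.20 (SE, edgeR adjusted p = 0.0806) in PW vs CK and 0.80 ± 0.21 (SE, edgeR adjusted p = 0.0202) in PW vs HS.

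Among identifiers without a name, ATCG00330 had the largest fall in both comparisons with CK. It was at 37.6, 27.5 and 24.7 CPM in CK, 1.62, 3.66 and 4.53 in PW versus 3.49, 3.63 and 3.50 in HS. Every library of either warm treatment was below every CK library. On the log2 scale the change was -3.08 ± 0.32 (SE, edgeR adjusted p = 0.00025) in HS vs CK and -3.20 ± 0.33 (SE, edgeR adjusted p = 0.000341) in PW vs CK, and PW and HS overlapped. The call held in each comparison with CK without any one library, where the log2 fold change ranged from -3.21 to -2.89 in HS vs CK and from -3.51 to -2.87 in PW vs CK.

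The other identifiers called lower in PW vs CK were ATCG00010, ATCG00210 and ATCG01100. They are named because they were few, which was known only after their values were seen. ATCG00210 was at 12.2, 16.1 and 14.2 CPM in CK, 4.18, 2.98 and 5.15 in PW versus 4.81, 5.11 and 4.76 in HS, with -1.78 ± 0.22 (SE, edgeR adjusted p = 0.000714) in PW vs CK and -1.53 ± 0.22 (SE, edgeR adjusted p = 0.000957) in HS vs CK. ATCG01100 was at 12.4, 10.9 and 12.7 CPM in CK, 2.48, 5.97 and 4.12 in PW versus 2.33, 0.907 and 2.83 in HS, with -1.52 ± 0.40 (SE, edgeR adjusted p = 0.0192) in PW vs CK and -2.56 ± 0.42 (SE, edgeR adjusted p = 0.00186) in HS vs CK. In PW vs CK its edgeR adjusted p rose to 0.0581, 0.0625 and 0.0608 on leaving out CK replicate 1, CK replicate 3 or PW replicate 3. ATCG00010 was at 11.9, 7.29 and 9.65 CPM in CK, 2.73, 2.98 and 5.46 in PW versus 2.33, 2.72 and 3.65 in HS. The log2 fold change was -1.37 ± 0.33 (SE, edgeR adjusted p = 0.0125) in PW vs CK, and its edgeR adjusted p was 0.0539 without CK replicate 1. For each of these identifiers, no PW or HS library reached the CK range.

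ATCG00190 had the largest rise in PW vs HS, since it was low in HS and high in PW. It was at 11.7, 11.1 and 11.3 CPM in CK, 25.1, 20.5 and 18.1 in PW versus 3.26, 3.96 and 4.32 in HS, so that no treatments overlapped. The log2 fold change was -1.56 ± 0.17 (SE, edgeR adjusted p = 0.000317) in HS vs CK and 2.46 ± 0.18 (SE, edgeR adjusted p = 7.08e-05) in PW vs HS. In PW vs CK it was 0.90 ± 0.16 (SE, edgeR adjusted p = 0.0037), under 2-fold.

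The largest rise in both comparisons with CK was that of ATCG00690, an identifier with few counts. It had 12, 11 and 2 counts in CK, 20, 60 and 15 in PW versus 28, 25 and 27 in HS, or 0.555, 0.631 and 0.128 CPM in CK, 1.71, 5.78 and 1.54 in PW versus 2.17, 2.06 and 2.01 in HS. The CK libraries were below all others, and PW replicate 2 was far above the other PW libraries. On the log2 scale the change was 2.20 ± 0.65 (SE, edgeR adjusted p = 0.0259) in HS vs CK and 2.73 ± 0.66 (SE, edgeR adjusted p = 0.0133) in PW vs CK. In HS vs CK the call was lost without CK replicate 1, 2 or 3 (edgeR adjusted p = 0.0612, 0.0502 and 0.077) and without HS replicate 1 or 2 (edgeR adjusted p = 0.059 and 0.0566).

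ATCG00100 was the identifier called lower in PW vs HS. It was at 1.16, 1.49 and 1.60 CPM in CK, 1.37, 0.674 and 1.24 in PW versus 2.95, 4.37 and 2.75 in HS, with HS above all other libraries. The log2 fold change was -1.61 ± 0.37 (SE, edgeR adjusted p = 0.0132) in PW vs HS, where the edgeR adjusted p was 0.0505 without HS replicate 2. It was 1.24 ± 0.36 (SE, edgeR adjusted p = 0.0222) in HS vs CK, where the call was lost without any of the CK libraries (edgeR adjusted p from 0.0604 to 0.0886) and without HS replicate 2 (edgeR adjusted p = 0.086). That call was also lost with library size alone (edgeR adjusted p = 0.0568), with the replicate block (0.0508) and with the block and the 2 groups (0.0607), and the last of these ended the call in PW vs HS too (edgeR adjusted p = 0.1256). ATCG00110, which had the most negative value in PW vs HS, had at most 15 counts in a library and was not called there (-1.89 ± 0.69, SE, edgeR adjusted p = 0.0719).

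**Figure D3:**
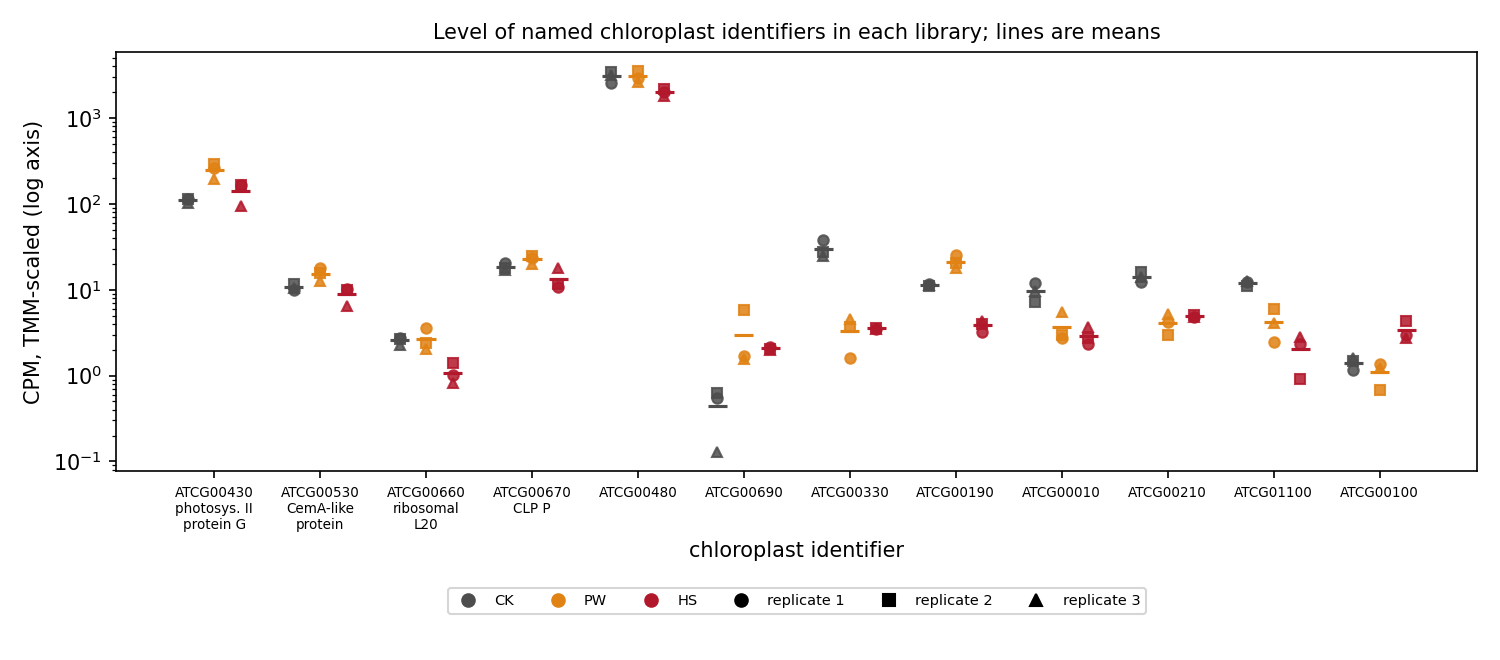
TMM-scaled CPM (vertical axis, log scale) of 4 tested identifiers that the annotation names and of 8 others described in the text (horizontal axis), by treatment, with a marker for each replicate and lines at the means. ATCG00330 drops from between 24.7 and 37.6 CPM in CK to at most 4.53 in the warm treatments, and ATCG00660 is lowest in HS.

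The 7 neighbouring identifiers from ATCG00760 to ATCG00820 were all called higher in PW vs HS and belong to the longest run of tested neighbours called the same way. Scaled to the chloroplast sum, the calls of ATCG00760, ATCG00770, ATCG00780, ATCG00800 and ATCG00820 were lost, and with library size alone those of ATCG00760 and ATCG00770. The call of ATCG00760 was also lost in the fit of only the 2 groups compared and on leaving out any CK library, PW replicate 2 or 3, or HS replicate 1 or 2, that of ATCG00770 without HS replicate 2, and those of ATCG00760 and ATCG00790 with the replicate block and the 2 groups. The run was picked after the values were seen, and neighbours on the chloroplast genome can share transcripts, so it is a description with no test. Their log2 fold changes in PW vs HS ranged from 1.10 to 1.91, with a median of 1.55. The same 7 had values from -1.63 to -0.02 in HS vs CK, where 2 were called lower, and from -0.53 to 1.72 in PW vs CK, where 3 were called higher.

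Within the run, the identifiers differed in which treatment departed from CK. ATCG00770 was at 61.7, 59.3 and 66.6 CPM in CK, 55.7, 49.9 and 56.6 in PW versus 19.4, 16.8 and 36.9 in HS, and it was called lower in HS vs CK. ATCG00790 was at 324.4, 315.6 and 346.3 CPM in CK, 985.1, 608.5 and 539.0 in PW versus 144.2, 148.7 and 273.7 in HS, and it was called higher in PW vs CK, a call lost with library size alone, when scaled to the chloroplast sum and on leaving out any CK library or PW replicate 1. ATCG00810 was at 47.9, 49.5 and 56.5 CPM in CK, 195.2, 168.5 and 142.4 in PW versus 40.6, 41.2 and 69.4 in HS, so that CK and HS overlapped while PW was above both. HS replicate 3 was the highest HS library for each of the 7. Without it, 20 identifiers were called lower in HS vs CK and 22 higher in PW vs HS. Over all tested genes these counts rose as well, to 3363 and 2314 of 18742, from 1985 and 1312 of 18952 with all libraries.

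**Figure D4:**
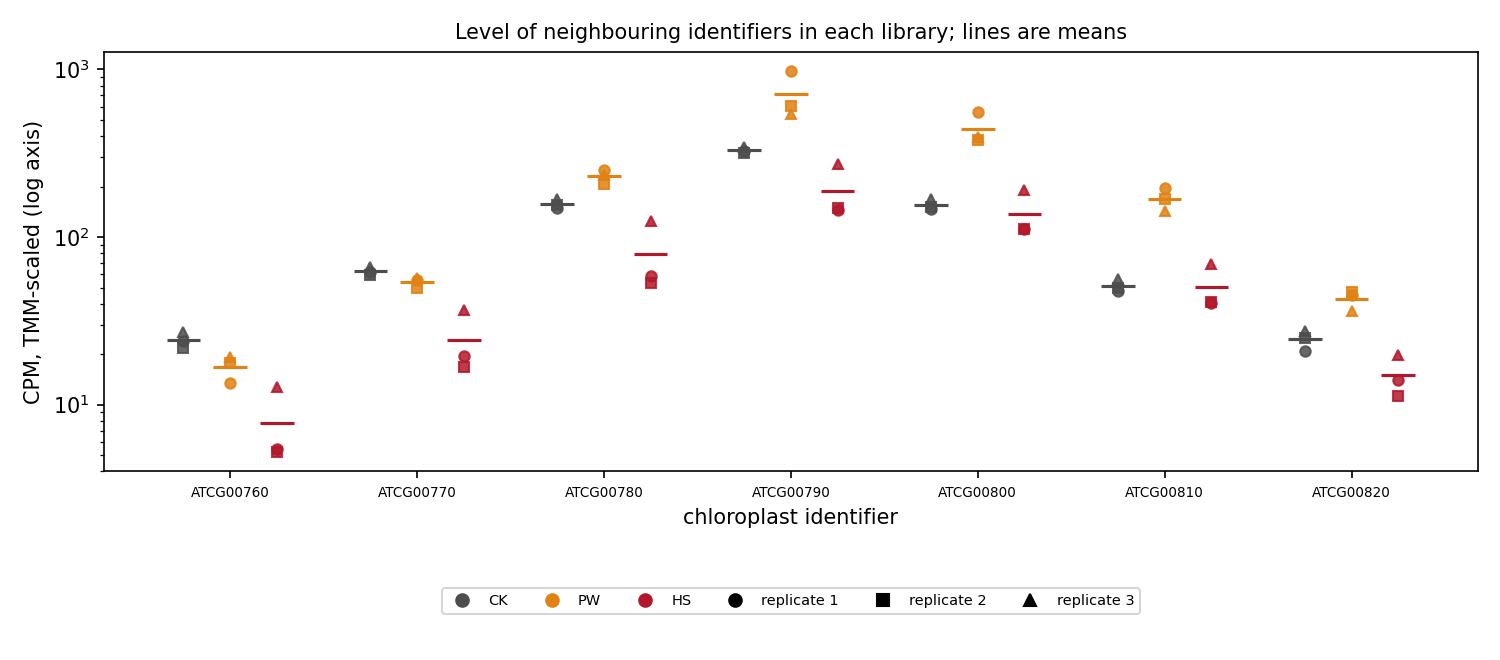
TMM-scaled CPM (vertical axis, log scale) of the 7 neighbouring identifiers from ATCG00760 to ATCG00820 (horizontal axis), by treatment, with a marker for each replicate and lines at the means. For each of the 7, the PW libraries lie above the HS libraries, and HS replicate 3 (red triangles) is the highest of its treatment.

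The nuclear genes of the same complexes and of plastid transcription and RNA stability were listed for comparison, 75 genes in 10 lists, and all were tested. In HS vs CK, 18 of the 75 were called higher, in PW vs CK 43, and in PW vs HS 13 were called higher and 2 lower (0 lower without PW replicate 2, 1 without HS replicate 1 or 2). Over all tested genes, 11.3%, 8.82% and 6.92% were called higher in these comparisons, and 7.57% lower in PW vs HS. With library size alone, 19 were called higher in PW vs CK and 7 in PW vs HS. On that scale, 842 and 809 of all 18952 tested genes were. By complex, photosystem II genes were called higher for 3 of 9 in HS vs CK and 6 of 9 in PW vs CK, photosystem I genes for 4 and 10 of 12, ATP synthase genes for 1 and 3 of 3, NDH genes for 4 and 4 of 5, and small subunits of Rubisco for 1 and 4 of 4. The 2 genes of the cytochrome b6f list were not called in either comparison with CK, with log2 fold changes of 0.10 for PETC and 0.09 for AT2G26500 in HS vs CK (edgeR adjusted p = 0.788 and 0.773), against 0.90 for PETC and 0.57 for AT2G26500 in PW vs CK (edgeR adjusted p = 0.0356 and 0.0951). The Rubisco genes are near-identical copies, whose counts depend on how reads were divided between them.

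Beside ATCG00660, of 14 nuclear genes of plastid ribosomal proteins, 9 were called higher in PW vs CK, with a median log2 fold change of 1.02, and the median in HS vs CK was 0.11. Of the 8 sigma factors and single-subunit polymerases, 4 were called higher under each treatment against CK, though not the same 4. SIGA, SIG4 and SIGE were called in both. SCA3 was called in HS vs CK alone (log2 fold change 1.10, against 0.09 in PW vs CK). SIG2 was called in PW vs CK alone (1.06, against 0.27 in HS vs CK). The polymerase genes SCA3 and AT5G15700 were the 2 called lower in PW vs HS (-1.01 and -1.16). Of 12 polymerase-associated proteins 1 was called higher in PW vs CK, close to the share over all tested genes, and of 6 proteins of plastid RNA stability 2 were. SIGE, a sigma factor that responds to stress and light, had the largest rise of the sigma factor list, from 6.75, 8.09 and 6.71 CPM in CK to 83.4, 69.3 and 31.6 in HS and 27.1, 154.6 and 106.1 in PW (log2 fold changes of 3.09 ± 0.60 and 3.74 ± 0.61, SE, edgeR adjusted p = 0.00396 and 0.00236).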

How the data were processed

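RNA-seq of leaves was analysed in 9 libraries, 3 per treatment, grouped by sample title. The authors filtered the reads, aligned them to TAIR10 by TopHat2 and deposited raw counts of reads per gene, with no normalization; the submitters' processing notes also name CASAVA 1.8 and HTSeq 0.6.1. Library selection, strand use and the handling of reads with several matches are not given in the sources used here. Chloroplast transcripts carry few or short poly(A) tails, so selection on poly(A) would affect how much of them is sequenced. Counts of overlapping genes are uncertain for the same lack of strand information.

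Tests used R 4.3.3 with edgeR 4.0.16 (TMM scaling, quasi-likelihood test, 1 coefficient per treatment, Benjamini-Hochberg over 18952 tested genes) and DESeq2 1.42.0 as an alternative. Shares were tested with scipy 1.17.1, and figures drawn with matplotlib 3.10.9. The biological coefficient of variation was 0.273. Scripts were tested on simulated data. Genes needed at least 10 counts in at least 3 libraries, which decides which chloroplast identifiers appear.

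The members and lists were chosen with earlier results of these data known. Values are printed for identifiers that the annotation names, apart from results not reported here, the identifier with the most CPM in CK, the largest rise and fall per comparison, and calls in a direction with 5 or fewer. That rule was written per functional group, but was applied over all members, since names matched for 6 of 133 identifiers. For the same reason no GC correction was made (2 of 82 tested members, 2.44%, had a GC value, and 80% were required), nor were alternatives restricted to protein-coding genes. From the nuclear lists, the rule gives the largest rise and fall of each list, of which the text prints the largest rise among sigma factors. The text also prints values of genes of that list whose calls differed between comparisons, and of the cytochrome b6f list. Over all tested genes, deviations of same-numbered CK and PW libraries from their group means had correlations of 0.291, 0.310 and 0.136. Over the chloroplast identifiers these were -0.0209, 0.2868 and 0.2415. Over all tested genes, those of HS with CK and PW varied in sign (from -0.497 to 0.450, the highest between PW and HS replicate 2). Correlations between differently numbered libraries were not computed, so these values have no baseline. The libraries were not taken as paired. No 2 replicates agreed within sampling noise (chi-square per degree of freedom at least 6.22).

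The alternatives were no filter, at least 10 counts in every library, DESeq2, library size alone, TMM factors from nuclear genes, the replicate number as a block, a fit of the 2 compared groups alone, the adjusted p alone and leaving out each replicate. Added after the data were seen were scaling to the chloroplast sum and the block with only the 2 groups compared.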

Additional observations from a re-analysis of the deposited data

How the results depend on the processing

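Calls of named identifiers kept their direction under every alternative run, but not all of them remained calls. In HS vs CK the call of ATCG00110 was lost without a filter (edgeR adjusted p = 0.0676) and with library size alone (0.0792). It was also lost with the replicate block (0.0503), with only the 2 groups compared (0.0562) and with the block and the 2 groups (0.1075). Leaving out CK replicate 1 or 3 or PW replicate 1 or 2 ended it as well. For HS vs CK the counts of higher calls were 10 with at least 10 counts in every library, 9 with library size alone and 10 with the replicate block and only the 2 groups compared, and from 8 to 17 on leaving out a replicate; the median was -0.03 without a filter, -0.30 with at least 10 counts in every library, -0.32 with library size alone, 0.02 scaled to the chloroplast sum, -0.24 with the block and the 2 groups, and from -0.27 to -0.10 on leaving out a replicate. For PW vs CK, library size alone gave 12 higher and 10 lower, a median of 0.18 and 19 nuclear genes higher; the chloroplast sum gave 10, 12 and 0.07; the adjusted p alone gave 8 lower; leaving out a replicate gave from 2 to 6 lower. For PW vs HS, 25 were higher by the adjusted p alone, 5 higher and 6 lower with the chloroplast sum (median -0.08), and 8 higher and 0 lower with the block and the 2 groups; ATCG00100 did not pass the filter of at least 10 counts in every library, which left 0 lower; leaving out a replicate gave from 0 to 1 lower, and library size alone 7 nuclear genes higher. Nuclear genes lower in PW vs HS numbered from 0 to 2 on leaving out a replicate. Counts over all tested genes moved with these settings as well. The cause was not tested.

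Values that were not called changed sign: in PW vs CK, ATCG00110 (0.01 with the replicate block, from -0.48 to 0.61 on leaving out a replicate), ATCG00480 (0.01 with DESeq2, 0.00 with the block and the 2 groups, from -0.13 to 0.09), ATCG00660 (-0.33 with library size alone, -0.45 with the chloroplast sum, from -0.20 to 0.22) and ATCG00670 (-0.11 and -0.19 with these scalings); in PW vs HS, ATCG00010 (0.35 with TMM, -0.27 with the chloroplast sum, from -0.02 to 0.55), ATCG00480 (0.61 and -0.04 likewise), ATCG00690 (0.53 and -0.12 likewise, from -0.35 to 0.84) and ATCG00330 (from -0.43 to 0.21). With the replicate block, HS vs CK had 13 higher and 18 lower, PW vs CK 18 and 4, and PW vs HS 12 and 1; in PW vs CK it ended the call of ATCG01130 alone. Low counts limit the 42 identifiers under a mean of 10 CPM.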
